A study of Mus musculus with 43 samples.

Results

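Type I interferon reaches the cell through a receptor of 2 chains, IFNAR1 and IFNAR2, and the gene that stood out most clearly in unexposed skin of iNZM mice was Ifnar1 itself. The comparison set 4 iNZM libraries beside 5 NZM libraries of back skin that had received no UVB, 9 of the 43 libraries of the series, and covered every gene with a normalised count of 10 or more in at least 4 of the 43 libraries. That left 19170 of 23256 genes. Of these, 6 (0.0313%) were lower in iNZM skin and 0 (0%) were higher at an adjusted p under 0.05 in limma. The 6 were Ifnar1 and 5 genes known to be induced by interferon, namely Ifi213, Ifi44, Usp18, Ifit1 and Oasl2.

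NZM stands for NZM2328, an inbred lupus-prone mouse strain. The labels give iNZM only as a genotype name; in the field it is used for NZM2328 mice that lack the type I interferon receptor, and no allele, promoter or clone is stated. All mice were female and 10 to 13 weeks old. The iNZM and NZM libraries compared here came from unexposed skin, and the remaining genotype, labelled WT with no strain given, has 4 unexposed libraries. Other mice of the 3 genotypes received acute UVB, 1 dose of 300 mJ/cm2, or chronic UVB, 100 mJ/cm2 on each of 5 days, and were biopsied 24 hours after the last dose; these groups hold 5 iNZM and 5 NZM libraries each. Libraries were made from polyadenylated RNA and read as pairs of 151 bases. The labels do not say that each library came from its own mouse, so p-values measure spread between libraries. In the main limma test that spread was estimated per gene within the 9 groups of all 43 libraries, those after UVB included.

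Interferon bound to the receptor activates the kinases JAK1 and TYK2, which phosphorylate transcription factors, STAT2 among them. With IRF9 these form a complex that binds interferon-stimulated response elements in promoters and switches on the interferon-stimulated genes, among them antiviral enzymes, GTPases and the feedback inhibitor USP18. In lupus, interferon-stimulated genes are often raised in blood and in skin that shows no lesion.

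The 9 libraries held 21.06 to 31.28 M reads, with 24.86 to 31.28 M in iNZM and 21.06 to 26.48 M in NZM. Keratinocyte genes were abundant in all 9, with Krt5 between 119730 and 265560 normalised counts, and so was the muscle actin Acta1, between 252600 and 558270, so the biopsies held muscle as well as skin. The anagen hair keratin Krt25 lay between 0 and 72.8. Among the NZM libraries, number 33 had the highest hair follicle score, -0.91 against -2.73 to -2.44 in the other 4. NZM libraries 34 and 35 had higher interferon-stimulated gene levels than the other 3, as given below.

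Ifnar1 encodes the signalling chain of the receptor and lies on chromosome 16 of GRCm38 at chr16:91485238-91507441, forward strand (ENSMUSG00000022967.13). Its normalised counts were 326, 374, 368 and 394 in the iNZM libraries, against 742, 851, 716, 809 and 809 in the NZM libraries. The groups did not overlap, and the iNZM mean of 366 ± 28.8 (SD, n = 4) was 46.5% of the NZM mean of 785 ± 55.2 (SD, n = 5). The difference was -1.10 ± 0.14 (SE) on the log2(normalised count + 1) scale, the scale of every difference given here, with an adjusted p of 5.62e-05 in limma. WT skin without UVB held 827 to 1318. Reads were thus counted on the gene in every iNZM library; a count per gene does not show from which exons they came, and the labels do not describe the allele. Ifnar1 passed the threshold in each of 22 alternative analyses.

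The partner chain and the neighbouring receptor genes did not pass the test. Ifnar2, which encodes the ligand-binding chain, had 326, 384, 349 and 346 in iNZM and 217, 325, 295, 297 and 246 in NZM, so that the groups did not overlap by a narrow margin, with a difference of 0.36 ± 0.30. With the fibroblast score as a covariate the Ifnar2 difference was -0.20. Ifngr2, a chain of the interferon-gamma receptor, differed by 0.40 ± 0.17 and Il10rb, a chain shared by the receptors for IL-10 and interferon-lambda, by 0.24 ± 0.23. Their limma adjusted p-values were 0.807 for Ifngr2 and 1 for Ifnar2 and Il10rb.

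A gene altered by targeting often carries a stretch of donor chromosome with it, so the genes around Ifnar1 were described by position. Of the 19170 genes, 15391 had a unique position in GENCODE. Within 1 Mb of Ifnar1, 27 other genes were tested and 0 were called; 3 of the 27 had groups that did not overlap, which is 11.1%, against 6.3% of the other 15390 genes. The 3 were Eva1c, Ifnar2 and Gart. Eva1c, 580 kb away, averaged 217 ± 48.2 in iNZM and 397 ± 52.95 in NZM (SD), a difference of -0.88 ± 0.24 with a limma adjusted p of 0.396, or 0.00124 with sample quality weights. Gm22933, 531 kb away, with means of 3.10 in iNZM and 17.1 in NZM, also passed in limma with sample quality weights (adjusted p 0.0170). Kcne1, 839 kb away, passed with DESeq2 (adjusted p 0.000872). Its means were only 0.206 in iNZM and 0 in NZM, and in limma it differed by 0.22 ± 1.69. The Kcne1 call thus rests on almost no reads. Within 5 Mb the share without overlap was 6.98%, and by chromosome it ran between 4.56% and 7.72%, with 6.45% on chromosome 16. The 5 other called genes lay on chromosomes 1, 3, 5, 6 and 19.

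**Figure D1:**
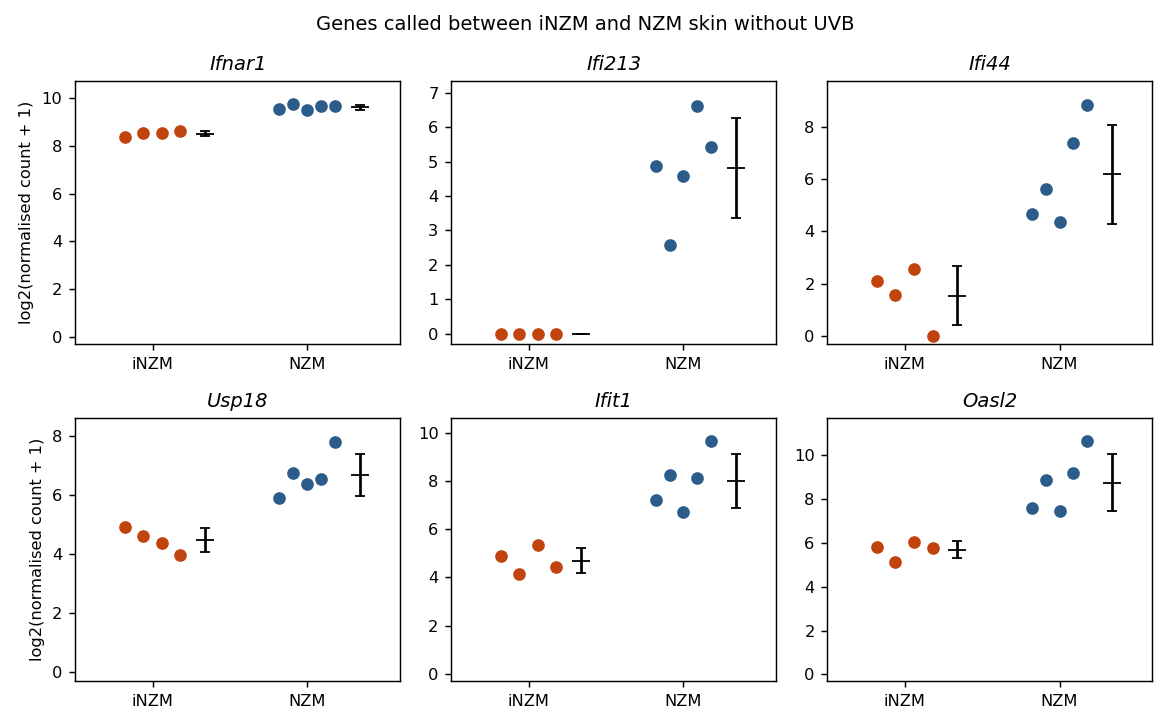
Normalised counts of the 6 called genes in each library without UVB, as log2(normalised count + 1), with iNZM (4 libraries) left of NZM (5 libraries); bars beside the points give the mean and SD. No iNZM point reaches the lowest NZM point in any panel, and Ifi213 is at 0 in all 4 iNZM libraries.

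Ifi44, an interferon-induced gene first named for a hepatitis-associated microtubular protein, lies at chr3:151730922-151749960 on the reverse strand. It had normalised counts of 3.27, 1.94, 4.95 and 0 in iNZM skin, against 24.5, 48.2, 19.7, 166 and 454 in NZM skin. The groups did not overlap, and within NZM libraries 34 and 35 stood well above the other 3. The iNZM mean was 1.78% of the NZM mean, with a difference of -4.62 ± 0.75 and a limma adjusted p of 0.0024. Unexposed WT skin held 84.7 to 1148.

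Ifi213 belongs to the Ifi200 cluster of nucleic-acid sensing proteins, at chr1:173566283-173599274 on the reverse strand. It had 0 reads in all 4 iNZM libraries, against normalised counts of 28.0, 5.02, 23.1, 96.5 and 41.7 in NZM. Set against a floor of 3 reads over the iNZM group, it was at least 52.8-fold lower, and its limma adjusted p was 0.0024. Over all 14 iNZM libraries of the 3 regimens 1 read was counted. WT skin without UVB was also close to 0, with a highest value of 0.916. Its mean in NZM, 38.9, is below the mean of 100 used to select genes for description, and it is described because it is 1 of 6 calls.

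Ifit1 codes for a protein that binds viral RNA lacking a host cap and lies at chr19:34640871-34650009. It had 28.3, 16.5, 39.6 and 20.9 in iNZM, against 149, 303, 104, 279.8 and 809.5 in NZM (-3.30 ± 0.65, limma adjusted p 0.0385). Oasl2, an oligoadenylate synthetase-like gene at chr5:114896936-114912234, had 55.6, 34.0, 65.2 and 53.2 in iNZM, against 193, 473, 173, 578 and 1613 in NZM (-3.06 ± 0.61, limma adjusted p 0.0385). The iNZM libraries lay close together for both genes, while the NZM libraries ranged widely, with library 35 highest. Unexposed WT skin held 110 to 673 for Ifit1 and 158 to 1926 for Oasl2.

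Usp18, the protease that removes ISG15 from proteins and dampens signalling at IFNAR2, lies at chr6:121245906-121270917. It had 29.4, 23.3, 19.8 and 14.6 in iNZM, against 58.4, 105, 82.1, 92.9 and 220.1 in NZM. The iNZM mean was 19.5% of the NZM mean (-2.20 ± 0.43, limma adjusted p 0.0385). Unexposed WT skin held 143 to 316 for Usp18. Ifnar1 and Ifi213 stayed past the threshold when any 1 of the 9 libraries was left out. Ifi44 lost its call without iNZM library 40 (limma adjusted p 0.0626). Ifit1, Oasl2 and Usp18 each lost theirs without any 1 of 7 libraries, NZM 32, 34 and 35 and iNZM 37 to 40, with limma adjusted p-values between 0.0614 and 0.213. Over all 9 such runs, those that kept the call included, Ifit1 lay between -3.62 and -2.88, Oasl2 between -3.39 and -2.59, and Usp18 between -2.39 and -1.92.

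Read against all genes, 6 lower calls were 0.0313% of the 19170 genes tested and 0 higher calls were 0%. At an unadjusted p under 0.05 there were 498 lower genes (2.6%) and 584 higher genes (3.05%). Groups did not overlap for 458 lower genes (2.39%) and 608 higher genes (3.17%). The median difference over all genes was -0.00855, and 51.5% of genes lay below zero. The edgeR quasi-likelihood test on recovered reads called 5 genes, 0 of them higher, and DESeq2 called 81, of which 12 were higher. Many of the lower DESeq2 calls were hair keratin, keratin-associated or clone-named genes with few or no reads in either group. Krtap8-1, for example, differed by -20.06 with DESeq2 and by -0.918 in limma, with means of 0 in iNZM and 4.62 in NZM. The number of DESeq2 calls is therefore no measure of how many well-covered genes differed. limma with sample quality weights called 274, of which 145 were higher. Fitting the 9 libraries alone gave 16 calls, 10 of them higher, and only 1 of those 16, Ifnar1, was among the 6. Fitting only the libraries without UVB, WT included, gave 7 calls, 2 of them higher. Of these 7, 2 were among the 6, Ifnar1 and Ifi213. Ifi44, Usp18, Ifit1 and Oasl2 were thus called only with libraries after UVB also in the fit that estimates the spread.

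Promoters of called interferon-induced genes are shown because the response element is the site bound by the complex described above. Whether it acts on these genes was not tested. The window is 250 bases before to 50 bases after the gene start (RefSeq, GRCm38.p6, given 5′ to 3′ on the gene's strand). Capitals mark matches to the core GAAANNGAAA, or TTTCNNTTTC where it lies on the other strand, with the N bases in lower case. The windows are chr19:34640639-34640938 (forward strand) for Ifit1, chr1:173599223-173599522 (reverse) for Ifi213, chr3:151749861-151750160 (reverse) for Ifi44 and chr5:114896684-114896983 (forward) for Oasl2.
Ifit1: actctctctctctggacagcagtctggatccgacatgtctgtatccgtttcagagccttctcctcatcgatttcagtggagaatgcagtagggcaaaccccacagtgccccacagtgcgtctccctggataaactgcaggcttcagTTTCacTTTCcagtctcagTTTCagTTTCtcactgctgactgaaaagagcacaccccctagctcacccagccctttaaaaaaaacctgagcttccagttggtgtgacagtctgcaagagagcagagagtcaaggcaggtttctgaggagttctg
Ifi213: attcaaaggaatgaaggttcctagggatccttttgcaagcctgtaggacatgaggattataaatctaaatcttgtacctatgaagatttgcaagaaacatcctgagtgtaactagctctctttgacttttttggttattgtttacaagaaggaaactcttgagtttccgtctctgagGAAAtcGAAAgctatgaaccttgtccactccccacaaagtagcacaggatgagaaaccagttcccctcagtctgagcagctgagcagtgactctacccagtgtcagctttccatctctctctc
Ifi44: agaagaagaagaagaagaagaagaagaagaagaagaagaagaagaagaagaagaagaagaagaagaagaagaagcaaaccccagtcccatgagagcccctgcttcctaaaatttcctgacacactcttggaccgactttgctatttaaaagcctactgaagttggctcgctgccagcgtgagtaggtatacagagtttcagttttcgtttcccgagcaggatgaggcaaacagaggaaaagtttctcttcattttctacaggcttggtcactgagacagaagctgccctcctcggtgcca
Oasl2: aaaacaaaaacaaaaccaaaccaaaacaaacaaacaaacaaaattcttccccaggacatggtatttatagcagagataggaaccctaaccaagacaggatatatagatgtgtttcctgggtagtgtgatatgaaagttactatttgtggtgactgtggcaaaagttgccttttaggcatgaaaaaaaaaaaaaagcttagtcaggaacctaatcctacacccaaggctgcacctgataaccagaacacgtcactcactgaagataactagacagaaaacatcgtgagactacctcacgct

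Ifit1 held 2 matches, starting 104 and 85 bases before the gene start, and Ifi213 held 1, starting 73 bases before it. The windows of Ifi44, Oasl2 and Ifnar1 held 0, which says only that these letters are not in them. Usp18 was not in the promoter table. Of the list of type I interferon-stimulated genes described next, 48 had a window and 22 of these held a match, which is 45.8%, against 3.99% of the 27025 genes of the table. The share was 84.6% for the interferon-gamma-inducible GTPases (11 of 13) and 0% for macrophage genes (0 of 11). A match is a string of letters and no measure of binding.

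The list of type I interferon-stimulated genes had 64 members tested. Of these, 4 were called lower (Ifi44, Usp18, Ifit1 and Oasl2), against 0.0313% of all genes, and 0 higher. Differences were below zero for 58 of the 64, with a median of -0.80 against -0.00855 over all genes. Groups did not overlap for 15 members, all of them lower in iNZM, against 2.39% of all genes. At an unadjusted p under 0.05, 27 members were lower, against 2.6% of all genes. The median lay between -0.96 and -0.57 when 1 library was left out. Near-identical relatives, such as the Oas1, Ifit3 and Slfn genes, may share reads, so values of single members are uncertain. The same holds for the Ifi200 genes, a separate list described below.

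Next in this list after the calls came Oas1a, an oligoadenylate synthetase that arms RNase L, and Rtp4, an interferon-induced regulator of innate sensing. Oas1a had 32.7, 35.0, 19.8 and 11.47 in iNZM, against 88.7, 129.5, 117, 270.1 and 571 in NZM (-2.96 ± 0.68, limma adjusted p 0.125). Rtp4 had 30.5, 25.3, 28.9 and 30.2 in iNZM, against 105, 156, 82.1, 231 and 573 in NZM (-2.59 ± 0.60, limma adjusted p 0.125). Neither gene's groups overlapped, and neither passed the threshold in limma. Both passed it with DESeq2 (adjusted p 0.000266 for Oas1a and 0.000135 for Rtp4) and in limma with sample quality weights (0.000165 and 0.000374).

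Isg15, a ubiquitin-like modifier, had 78.4, 118, 104 and 75.1 in iNZM, against 148, 393, 143, 434 and 1605 in NZM (-1.94 ± 0.61, limma adjusted p 0.567). Irf7, the transcription factor that amplifies interferon production, had 189.6, 235, 218 and 272 in iNZM, against 558, 474, 372, 2461 and 2298 in NZM (-1.97 ± 0.61, limma adjusted p 0.567). Bst2, which tethers budding virus to the cell surface, had 334, 341, 400.1 and 401 in iNZM, against 606, 603, 482, 1122 and 1683 in NZM (-1.12 ± 0.43, limma adjusted p 0.783). In all 3 the groups did not overlap and NZM libraries 34 and 35 were the highest. Isg15 and Irf7 passed the threshold with DESeq2 (adjusted p 0.00485 and 0.0172) and in limma with sample quality weights (0.0120 and 0.0324).

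Among the other effectors, Rsad2, the antiviral protein viperin, differed by -1.85 ± 0.55, and Ifit3, a partner of Ifit1, by -1.35 ± 0.64. The groups did not overlap for Rsad2 or Ifit3. Ifi27l2a differed by -1.49 ± 0.61 and Mx1, an antiviral GTPase, by -1.23 ± 0.80, with groups that overlapped; Mx1 was low in both strains, with means of 13.7 in iNZM and 49.5 in NZM. None of the 4 passed the threshold in limma; Rsad2 passed it with DESeq2 (adjusted p 0.0315) and in limma with sample quality weights (0.00711).

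The transcription factors below the receptor showed smaller differences. Stat2 had 315, 343, 417 and 333 in iNZM, against 483, 584, 392, 576 and 1324 in NZM (-0.80 ± 0.33, limma adjusted p 0.784). Irf9, its DNA-binding partner, differed by -0.58 ± 0.22 (limma adjusted p 0.778). The groups of both genes overlapped. Over the 17 genes of the receptor and its signalling, the median was -0.14. Ifnar1 and Usp18, 2 of the 17, were called lower, against 0.0313% of all genes. Usp18, Irf7, Stat2 and Irf9 are among the genes that also stand in the list of interferon-stimulated genes.

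**Figure D2:**
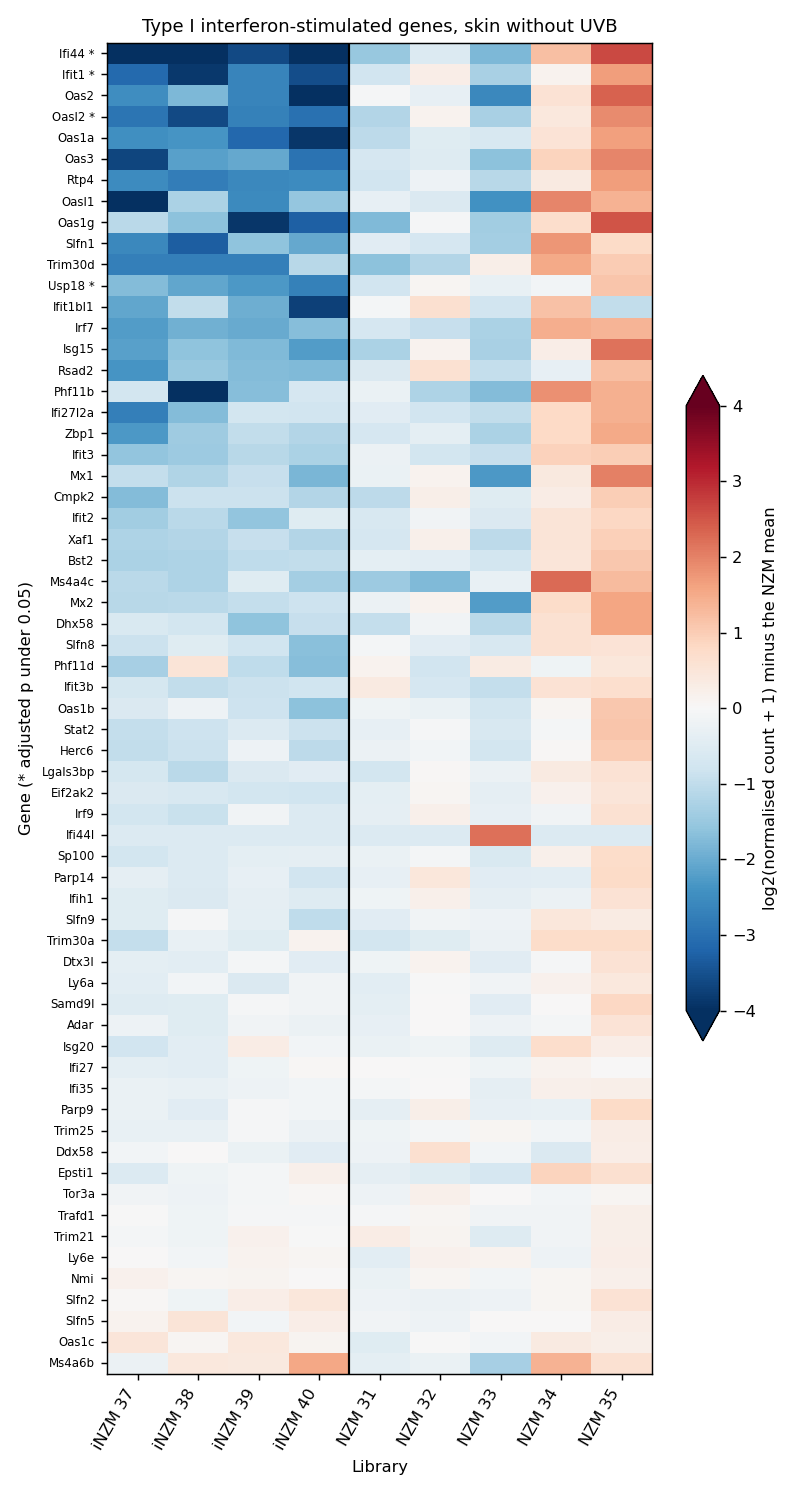
Heat map of 63 of the 64 type I interferon-stimulated genes (rows, ordered by difference) in the 4 iNZM libraries (left) and 5 NZM libraries (right) without UVB, coloured by log2(normalised count + 1) minus the NZM mean, with colours capped at 4. The upper rows are low in every iNZM library, NZM 35 and 34 are the highest NZM columns, and NZM 33 and 31 the lowest.

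The spread within NZM was shared across the list. NZM library 35 had the highest value of the 5 for 45 of the 64 genes and library 34 for 15, while library 33 had the lowest for 38 and library 31 for 20. The summed normalised count of the list was 21931, 22229, 24473 and 24213 in iNZM, against 24358, 30671, 25012, 34636 and 49508 in NZM. The sums of the groups therefore overlapped, since NZM 31 fell between iNZM libraries. The mean log2 score, each gene centred on its mean over the 43 libraries, did separate the groups, from -0.88 to -0.66 in iNZM and from -0.38 to 1.203 in NZM.

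Related lists were counted in the same way. Of the 12 Ifi200 cluster genes tested, 1 was called lower (Ifi213), against 0.0313% of all genes. In that list 7 lay below zero, and the median was -0.65. Mndal differed by -1.28 ± 0.50 and Ifi203 by -1.03 ± 0.57, both with groups that did not overlap and neither called in limma. Of 20 interferon-gamma-inducible GTPases, which attack the vacuoles of intracellular pathogens, 0 were called, 17 lay below zero, and the median was -0.51. Tgtp1 differed by -1.77 ± 0.65, Igtp by -1.24 ± 0.49 and Irgm1 by -0.93 ± 0.43, of which the groups did not overlap for Irgm1 alone.

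Genes of antigen presentation were listed by class. The 24 genes of MHC class I presentation and the immunoproteasome had a median of -0.056, with 0 called; H2-T24 differed most by p-value, at -1.46 ± 0.54 (limma adjusted p 0.759, or 0.0405 with sample quality weights), with groups that did not overlap. All 11 MHC class II genes tested lay above zero, with a median of 0.57 and 0 called. With the fibroblast and matrix score as a covariate the medians were -0.13 for class I and -0.14 for class II, and the difference between the classes was not tested. H2-DMb2 differed by 0.90 ± 0.54 and Ctss, a protease that processes the invariant chain, by 0.88 ± 0.71. Cd74, the invariant chain, had 15911, 16812, 23184 and 22431 in iNZM, against 13288, 18600, 18009, 7671 and 10941 in NZM, and its groups overlapped. Of 14 interferon-induced and monocyte-attracting chemokine genes, 0 were called and 11 lay above zero; Cxcl10, a classical target of interferon, differed by -0.53 ± 0.57 and Ccl8 by 1.87 ± 0.80.

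**Figure D3:**
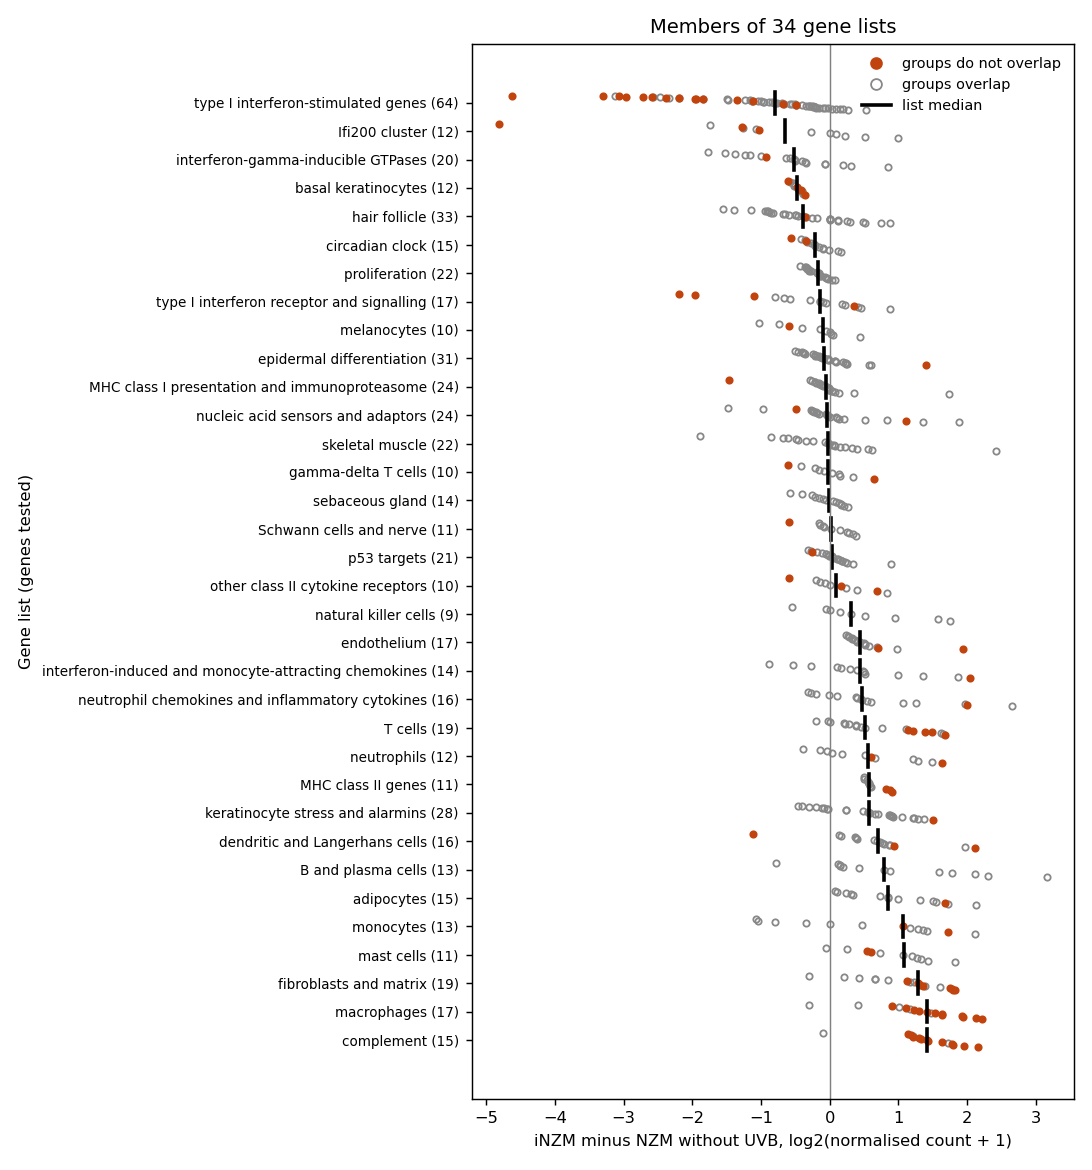
Difference of every tested member of 34 gene lists, iNZM minus NZM without UVB, in log2(normalised count + 1); filled points are genes whose groups do not overlap, and black bars are list medians. Lists run from the lowest median, type I interferon-stimulated genes at -0.80, to the highest, complement and macrophages at 1.41.

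Outside the interferon lists limma with equal weights called no member of any list, but the lists of dermal and myeloid genes lay above zero. Of 17 macrophage genes, 12 had groups that did not overlap, all higher in iNZM, and the median was 1.41. Of 15 complement genes, 12 were higher without overlap, 8 at an unadjusted p under 0.05, and the median was 1.41. Of 19 fibroblast and matrix genes, 8 were higher without overlap, 11 at an unadjusted p under 0.05, and the median was 1.28. The background was the 3.17% given above for higher genes without overlap, and 3.05% for higher genes at an unadjusted p under 0.05. C1qa, C1qb and C1qc stand in both the macrophage and complement lists. In whole skin, more cells of a type and more RNA per cell cannot be told apart.

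Cd163, a scavenger receptor of resident macrophages, had 677, 1432, 1341 and 2821 in iNZM, against 242, 248, 364, 352 and 306 in NZM (2.21 ± 0.82, limma adjusted p 0.769). C3, the central complement component, had 3421, 5110.2, 5151 and 7097 in iNZM, against 1388, 2431, 2256, 813 and 1022 in NZM (1.80 ± 0.81, limma adjusted p 0.839). Col3a1, a fibrillar collagen of dermis, had 23012, 15626, 21388 and 38234 in iNZM, against 4119, 9545, 15325, 4531 and 4555 in NZM (1.82 ± 0.72, limma adjusted p 0.783). For each gene the groups did not overlap, and iNZM library 40 was the highest of the 9.

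Among the others, Mrc1, the macrophage mannose receptor, differed by 2.12 ± 0.81, and C4a, a complement gene whose reads may be shared with its near-copy C4b, by 1.96 ± 0.63. The adipocyte-derived protease Cfd differed by 1.71 ± 0.61. Pdgfra, a receptor of fibroblasts, differed by 1.78 ± 0.69 and Lum, a matrix proteoglycan, by 1.79 ± 0.70. None passed the threshold in limma with equal weights. With sample quality weights limma called Cd163 (adjusted p 0.0317), Mrc1 (0.0339), C4a (0.0218), Cfd (0.0215) and Lum (0.0441). WT skin without UVB spanned 598 to 6819 for Cd163 and 14950 to 101600 for Col3a1, above every NZM library for Cd163.

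Scores of other tissue lists differed between the same libraries. The fibroblast and matrix score was 0.32, 0.27, 0.25 and 0.76 in iNZM, against -1.11, -0.28, -0.059, -1.16 and -1.03 in NZM. With that score as a covariate, an analysis chosen after seeing the data, the median became -0.16 for macrophages, 0.050 for complement and -0.14 for MHC class II, and -1.12 for type I interferon-stimulated genes. Of 15 adipocyte genes, all lay above zero with a median of 0.85. All 12 basal keratinocyte genes lay below zero, with a median of -0.47 and 4 lower without overlap, against 2.39% of all genes; Itga3, a laminin-binding integrin, differed by -0.60 ± 0.26. Whether biopsy depth moves these lists was not tested. Skeletal muscle genes had a median of -0.020 and T cell genes of 0.51, with 0 called in both.

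**Figure D4:**
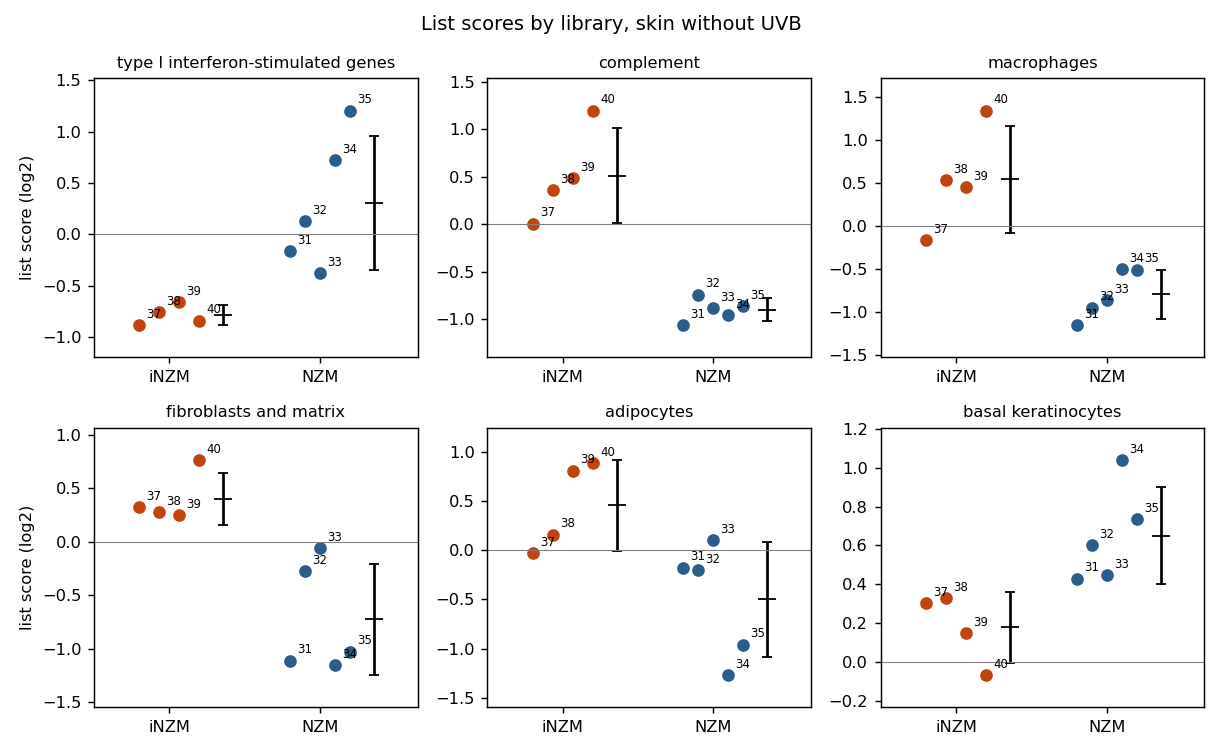
Score of 6 gene lists in each library without UVB (mean over members of log2(normalised count + 1), each gene centred on its mean over 43 libraries), iNZM left of NZM, with library numbers and the mean and SD beside the points. The complement and fibroblast scores of all 4 iNZM libraries lie above those of all 5 NZM libraries, and the interferon-stimulated gene scores lie below.

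The same strain comparison after UVB, in other libraries, gives the scale of the difference without UVB. After acute UVB 42 genes were lower in iNZM (0.219%) and 1 was higher (0.00522%). After chronic UVB 79 were lower (0.412%) and 3 were higher (0.0156%). All 6 genes called without UVB were also called lower after both regimens. Ifnar1 differed by -1.04 after acute and -1.13 after chronic UVB, Ifi44 by -5.42 and -5.45, and Oasl2 by -3.72 and -4.26. Usp18 differed by -3.08 after acute and -1.96 after chronic UVB.

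Of the 64 interferon-stimulated genes, 24 were called lower after acute UVB (median -1.79) and 26 after chronic UVB (median -1.95), beside 4 without UVB (median -0.80). After either regimen 30 were called, and all 30 lay below zero without UVB, 11 of them with groups that did not overlap. Over the whole list 58 of the 64 lay below zero without UVB and 15 were lower without overlap. The share lower without overlap was 2.39% of all genes. Oas1a and Rtp4, not called without UVB, were called after both regimens, with differences of -4.32 and -3.78 after acute UVB. The larger number of calls does not show a larger difference: the change of the strain difference was tested itself.

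That test called 1 gene for the acute regimen (0.00522%) and 0 for the chronic one (0%). The 1 gene was RP24-208K8.1, which the table names only by its clone and which was low throughout. For Ifi44 the strain difference after acute UVB was -0.80 from that without UVB (limma adjusted p 0.903), and for Oasl2 it was -0.66 (limma adjusted p 0.902). After chronic UVB 2134 genes differed at an unadjusted p under 0.05, and the smallest limma adjusted p was 0.0665; edgeR called 0 and DESeq2 379. The 5 genes with the smallest p-values were Cnrip1, Gpr183, Csf3r, Nnmt and Hoxc10, for which the strain difference after chronic UVB was -2.54 to -5.90 from that without UVB. For each of the 5 the difference was above zero without UVB and below zero after chronic UVB. The 5 were picked by the test of this change, which favours such a turn of sign, so the turn is no separate result. Gpr183, an oxysterol receptor that guides immune cells, differed by 2.26 without UVB and -3.04 after chronic UVB, and Csf3r, the receptor for G-CSF, by 1.64 and -4.27.

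The medians of the macrophage and complement lists also had opposite signs without and after UVB, at 1.41 and 1.41 without UVB, -1.16 and -1.11 after acute UVB, and -2.40 and -2.26 after chronic UVB. With the fibroblast and matrix score as a covariate the medians without UVB were -0.16 and 0.050, so the sign without UVB depended on that choice; the change of a list's median was not tested. Fibroblast and matrix genes had medians of 1.28, -0.45 and -1.43 in that order of regimens. Mrc1 differed by 2.12 without UVB and -2.40 after chronic UVB, a change of -4.52 ± 1.11 with a limma adjusted p of 0.0665. Without NZM library 33 the chronic test called 10 genes.

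**Figure D5:**
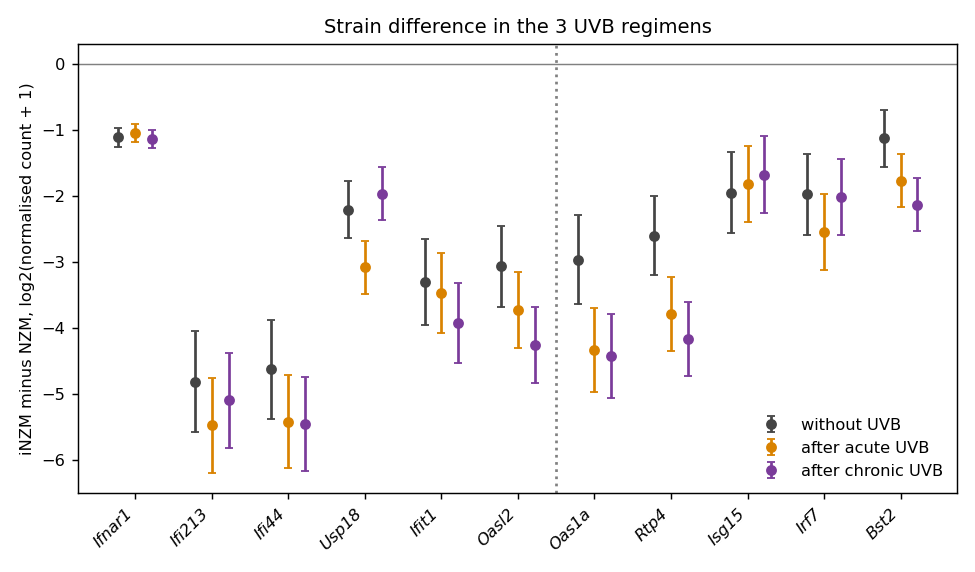
Strain difference, iNZM minus NZM in log2(normalised count + 1) with its SE, for the 6 called genes (left of the dotted line) and 5 other interferon-stimulated genes, without UVB and after acute and chronic UVB. Every point lies below zero; Ifnar1 sits near -1.1 in all 3 regimens, and Ifi44 between -5.45 and -4.62.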

How the data were processed

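Polyadenylated RNA of 43 back skin libraries was read as pairs of 151 bases, per the labels' protocols. Per the submitters' processing notes the tools were STAR, HTSeq and DESeq2 and the build was mm10; versions and the annotation are not given in the sources used here. The authors deposited 1 table of normalised gene counts, a signal in which each library's counts are divided by its size factor (0.6735 to 1.75). Dividing each library by its smallest step gave whole reads for 100% of values within 0.01, and edgeR 4.0.16 on those reads called 5 genes in iNZM against NZM without UVB.

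Groups were taken from the sample titles. Because the values are normalised, the main test was limma 3.58.1 (R 4.3.3) on log2(normalised count + 1), with the means of 9 groups over all 43 libraries and Benjamini-Hochberg adjustment over the 19170 genes with a value of 10 or more in at least 4 libraries; a gene was called at an adjusted p under 0.05. The change of the strain difference after UVB was tested as an interaction. On simulated reads of 19170 genes for iNZM against NZM without UVB, 62% of genes changed 2-fold and 88% of genes changed 4-fold were recovered, with 6 false calls among the rest. The simulation changed 200 genes, none of them with a low NZM mean, and gave no spread shared between genes. The real comparison had far fewer calls and a shared spread within NZM, so these recovery shares may be too high for it. Genes named were called genes with a mean of 100 or more in the higher group and no overlap, the members of each list with the smallest p-values, the genes near Ifnar1, the smallest p-values of each interaction and a set of well-known interferon genes. The members and lists were chosen with earlier results of these data known. Replicates of each group differed by more than sampling noise (chi-square per gene 16.93 or more over 16 pairs). Positions are from GENCODE (GRCm38) and promoters from RefSeq (GRCm38.p6). Depth limits genes with few reads, and floors cover counting error only. The alternatives, DESeq2 1.42.0 on recovered reads among them, are described in the closing section. Some members of the lists are not reported here by name. Figures were drawn with matplotlib 3.10.9.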

Additional observations from a re-analysis of the deposited data

Results flagged for a closer look

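RP24-208K8.1, which the table names only by its clone, was flagged because its strain difference changed between regimens by the test of that change. The strain difference after acute UVB was 5.0954 from that without UVB on the log2(normalised count + 1) scale (SE 0.87, limma adjusted p 0.0165). Without UVB it had normalised counts of 0, 0, 0.825 and 0 in iNZM and of 7.002, 6.02, 4.62, 10.998 and 8.73 in NZM. After acute UVB it averaged 8.78 ± 4.96 in iNZM and 1.42 ± 2.11 in NZM (SD, n = 5 each). All of these values rest on few reads, and the call was lost without NZM library 34 or iNZM library 37, 38 or 40. Of 132 groups of libraries of the genes examined for a single library far from the others, 0 were flagged.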

How the results depend on the processing

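The 6 calls without UVB became 16 when only the 2 groups were fitted, 274 with sample quality weights, 81 with DESeq2 and 3 at a threshold of 0.01; leaving out 1 library gave 2 to 8, with 3 without NZM 34, iNZM 37 or iNZM 39 and 2 without iNZM 40. With only the libraries without UVB fitted, the count was 7, but of the 6 only Ifnar1 and Ifi213 were among them. In 22 alternatives Ifnar1 passed in 22, Ifi213 in 19, Ifi44 in 18, Oasl2 and Usp18 in 11 and Ifit1 in 10, and all 6 kept their direction. The 43 calls after acute UVB became 23 at a threshold of 0.01. The 82 after chronic UVB became 36 with a pseudocount of 8, 628 with sample quality weights, 48 with edgeR, 222 with DESeq2, 14 with the fibroblast and matrix score as a covariate and 27 at 0.01. The 1 call of the acute change became 0 with a filter at 50, sample quality weights, edgeR, the covariate or a threshold of 0.01 and 5 with DESeq2, and lay between 0 and 1 when 1 library was left out. The 0 calls of the chronic change became 1230 with sample quality weights and 379 with DESeq2, and lay between 0 and 10 when 1 library was left out, with 10 without NZM 33. Under the covariate, chosen after seeing the data, 5 differences turned negative: Ctss (-0.2937), Tmem173 (-0.04354), Ccr2 (-0.08445), Ifnar2 (-0.2009) and Il10rb (-0.111). The same covariate moved the medians of complement to 0.050, macrophages to -0.16, MHC class II to -0.14 and chemokines to -0.25. It also moved dendritic cells to 0.065, T cells to 0.12 and the Ifi200 cluster to -1.25. The cause was not tested. Fibroblasts and matrix moved to 0.12, which was fixed in advance because the score is the mean of those same genes. The score did not overlap between the 2 groups, so its part and that of strain cannot be told apart. The median of type I interferon-stimulated genes stayed between -1.12 and -0.57 in 21 alternatives. No paired analysis was possible because the labels give each library a number of its own, shared by no other. Some genes whose values varied much between the 4 and 5 libraries were not called in limma even where the difference was large. Among them were Oas1a, with an iNZM mean 10.5% of the NZM mean, and Isg15, with 17.2%. Whether these are missed differences was not tested. Single-gene values under about 10 rest on few reads, and many of the DESeq2 calls without UVB were hair genes with such values.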
